A study of Mus musculus with 10 samples.

Results

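The upper dermal fibroblasts of embryonic mouse back skin were described across 10 single-cell RNA libraries. Within the fibroblasts, a cell was taken, selected on its own counts, when it held UMIs of at least 3 of the 6 markers Crabp1, Axin2, Lef1, Rspo1, Ptgfr and Inhbb and of fewer than 2 of the deep markers Mfap5, Pi16, Dpp4 and Osr1. A UMI (unique molecular identifier) stands for 1 captured RNA molecule. Fibroblasts were cells with over 1000 and under 6000 detected genes, under 10% mitochondrial UMIs, at least 30 UMIs of the collagens Col1a1 and Col3a1 together, fewer than 10 UMIs of the keratins Krt5 and Krt14 together and no UMI of Sox2, Pecam1 or Ptprc. These limits gave 30590 gated fibroblasts, of which 15734 (51.4%) were upper dermal fibroblasts by the marker rule. They made up 28.4% of the 55482 cells that passed the gene and mitochondrial limits, out of 82691 barcodes in all.

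At E15.5 the libraries were control replicates 2 and 3 and MOF cKO replicates 5 and 6, and at E16.5 control replicates 1 and 2 and MOF cKO replicates 1 and 2. At E17.5 there was 1 library of each of control and QPC cKO. The genotypes were MOF fl/fl with K14Cre for MOF cKO and QPC fl/fl with K14Cre for QPC cKO, on a mixed background of C57Bl/6J and CD-1. MOF (gene symbol Kat8) acetylates lysine on histone H4, QPC (Uqcrq) is a subunit of mitochondrial complex III, and the controls were wild-type or heterozygous littermates. The Krt14-Cre driver is active in the epithelium, so the fibroblasts described here are neighbours of the cells in which the gene was deleted. The study describes the later-numbered MOF cKO embryo of the earliest stage as mosaic for the deletion, from its epithelial cells and from staining of the histone mark.

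Dermal fibroblasts under the epidermis receive Wnt ligands from it. When a Wnt ligand binds Frizzled and Lrp receptors, beta-catenin escapes the Axin-containing destruction complex and joins TCF/LEF factors on target genes, among them the feedback inhibitors Axin2, Nkd1 and Nkd2. R-spondins such as Rspo1 strengthen the signal by sparing Frizzled receptors from removal. In the embryonic dermis this pathway is known for setting dermal fate and for hair follicle formation, while the deeper dermis and fascia hold a different fibroblast population. Of the other markers, Crabp1 binds retinoic acid in the cytoplasm, Ptgfr is the receptor of prostaglandin F and Inhbb encodes a subunit of activin B.

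The libraries gave 2051 and 2671 upper dermal fibroblasts in the E15.5 controls, 3813 and 3861 in E15.5 MOF cKO, 252 and 453 in the E16.5 controls, 240 and 377 in E16.5 MOF cKO, 641 in the E17.5 control and 1375 in E17.5 QPC cKO. Their summed UMIs ranged from 2925499 to 51205737 per library, lowest at E16.5, and their median from 10621 to 18630 UMIs per cell. Only E16.5 used the older 3' v2 chemistry, so stage and chemistry cannot be told apart. The 2 E17.5 libraries shared 1702 barcodes (20.7% of the control's and 17.1% of QPC cKO's), but 7 of these passed the cell limits in both and none was an upper dermal fibroblast in both, and other pairs of libraries shared at most 67. The limit on keratin UMIs removed 42.1% of the collagen cells in the E17.5 control and between 0% and 10.2% elsewhere. Levels are UMIs per 1e6 UMIs of the cells summed (CPM). Xist stood between 744 and 1115 CPM except in E16.5 control replicate 2 (0.376 CPM), the E17.5 control (0.0788 CPM) and QPC cKO (0 CPM), in which the Y-linked Ddx3y reached 55.8, 114 and 82.3 CPM. Sex therefore differed between the E16.5 controls, while both E16.5 MOF cKO libraries held Xist RNA. Sex was thus not balanced between the E16.5 genotypes, and its part in the E16.5 changes was not tested.

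Kat8 in the upper dermal fibroblasts stood at 8.96 and 9.85 CPM in the E15.5 controls, 6.88 and 6.05 in E15.5 MOF cKO, 9.91 and 7.89 in the E16.5 controls and 2.77 and 4.76 in E16.5 MOF cKO. All 4 MOF cKO values lay below the controls of their stage, and the difference at E16.5 did not pass the test (log2 fold change -1.04 ± 0.35, SE, edgeR adjusted p = 0.109). Uqcrq stood at 62.2 CPM in the E17.5 control against 125 CPM in QPC cKO. Neither value checks the labels, because the driver is an epithelial one.

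The cells held fibroblast RNA, while the name upper dermal rests on the rule and has mixed support from other genes. The fibroblast genes Dcn (2278 to 3923 CPM), Lum (1792 to 2876 CPM) and Pdgfra (81.3 to 266 CPM) were present in every library, and they mark fibroblasts of any layer. A list of 12 upper dermis and papillary genes, of which the rule used none, summed to 278 to 1375 CPM in the upper dermal fibroblasts. At E16.5 it summed to 463 and 318 CPM in the controls and 351 and 278 CPM in MOF cKO, below the 525, 332, 365 and 283 CPM of the remaining fibroblasts of the same libraries, and in control replicate 2 and MOF cKO replicate 2 below the 397 and 329 CPM of the deep-side class. From 36.5% to 61.3% of the upper dermal fibroblasts of a library held 1 of the 4 deep markers. The 6 markers chose the cells, so their shares are a description. A UMI of Crabp1 was found in 80.2% to 99.9% of the upper dermal fibroblasts, of Rspo1 in 43.9% to 89.6%, of Ptgfr in 44.2% to 68.2%, of Axin2 in 32.1% to 67.0%, of Lef1 in 21.5% to 76.2% and of Inhbb in 29.4% to 47.6%. In endothelial and immune cells (median 10480 to 21857 UMIs per cell), which should lack most of these RNAs, the shares were 2.76% to 57.9% for Crabp1, 2.80% to 21.7% for Axin2, 2.80% to 25.2% for Lef1 and at most 8.18% for the other 3 markers. Among the upper dermal fibroblasts, cells with a UMI of neither Axin2 nor Lef1 made up 20.1% and 20.1% in the E15.5 controls. Their share was 27.7% and 20.7% in E15.5 MOF cKO and 23.8% and 23.8% in the E16.5 controls. They made up 46.3% and 55.2% in E16.5 MOF cKO, 17% in the E17.5 control and 10.8% in QPC cKO. In the E16.5 MOF cKO libraries about every second cell therefore entered through Crabp1, Rspo1, Ptgfr and Inhbb alone.

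Most cells lay close to the threshold. Cells with exactly 3 markers made up 42.8% to 72.2% of the upper dermal fibroblasts of a library, those with all 6 at most 3.64%. Just outside the rule, 129 to 1737 gated fibroblasts per library held 2 markers and fewer than 2 deep ones. In every library these had a lower median depth than cells with 3 markers, for example 8781 against 10711 UMIs per cell in E16.5 control replicate 2 and 17312 against 17380 in E17.5 QPC cKO.

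Upper dermal fibroblasts took 49.9% and 58.7% of the gated fibroblasts in the E15.5 controls against 54.5% and 56.1% in MOF cKO. At E16.5 the control shares were 39.9% and 32.5% and the MOF cKO shares 49.4% and 37.9%. The genotypes overlapped at both stages. They did not overlap at E16.5 with fewer than 2 keratin UMIs (difference 16.2 percentage points) or at E15.5 after every cell was thinned to 4000 UMIs (2.80). The mean differences of 1.02 percentage points at E15.5 (exact permutation p = 1.0, two-sided) and 7.41 at E16.5 (exact permutation p = 0.667) were not distinguishable from the spread between libraries, and the smallest p that 2 against 2 libraries allow is 0.333. Leaving out each library gave 1.64 to 13.2 percentage points at E16.5, the lowest without MOF cKO replicate 1 and the highest without MOF cKO replicate 2. When a UMI of Axin2 or Lef1 was also required, a rule chosen after the data were seen, the differences turned to -1.43 at E15.5 and -5.83 at E16.5. At E17.5 the share was 39.5% (95% Wilson interval 37.2 to 41.9) in the control and 47.1% (45.3 to 48.9) in QPC cKO, with 1 library each and an interval that covers counting error only.

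Among all kept cells, epithelium included, the share was higher in every MOF cKO library than in the controls of its stage. It was 24.4% and 29.3% in the E15.5 controls against 37.5% and 36.2% in MOF cKO, and 22.1% and 18.5% in the E16.5 controls against 33.5% and 27.7% in MOF cKO. Over both stages the difference was 10.1 percentage points (exact permutation p = 0.0556, two-sided, the smallest the design allows). It was 3.90 after thinning, 4.56 with 4 or more markers and 16.6 with the stricter keratin limit. With Axin2 or Lef1 required it was 3.09 percentage points (exact permutation p = 0.278). All gated fibroblasts were a larger share of kept cells as well, with 49.0% and 49.9% in the E15.5 controls against 68.7% and 64.7% in MOF cKO, and 55.4% and 56.9% against 67.9% and 73.1% at E16.5. A larger share of one class and a smaller number of other cells cannot be told apart here.

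**Figure D1:**
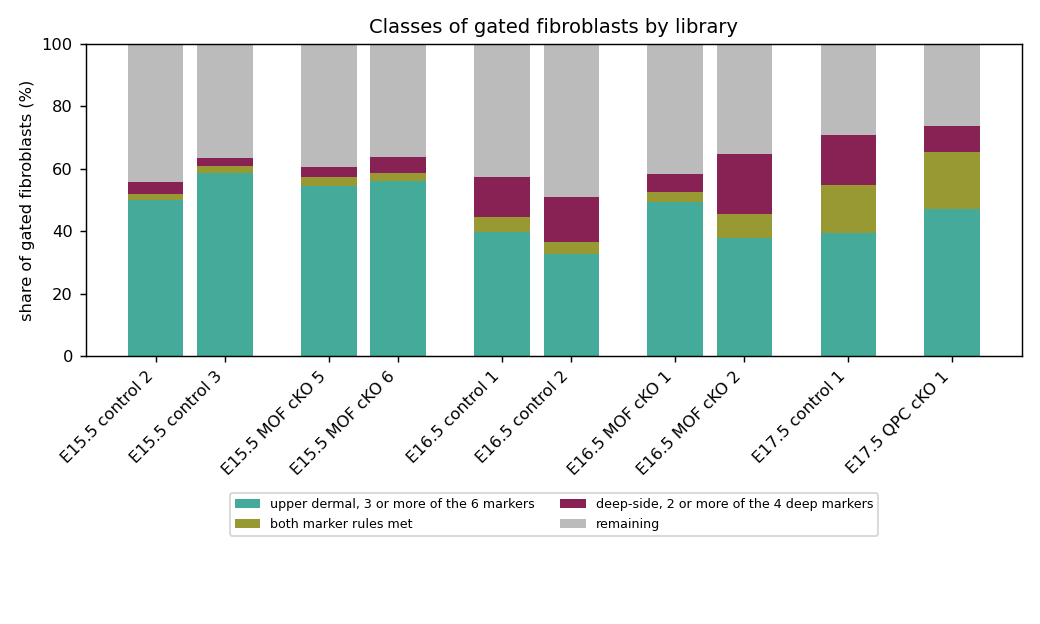
Shares of gated fibroblasts in percent (vertical axis) in the 10 libraries (horizontal axis), as stacked bars of upper dermal, deep-side, doubly positive and remaining cells. The upper dermal class ranged from 32.5% in E16.5 control replicate 2 to 58.7% in E15.5 control replicate 3, and its bars in control and MOF cKO overlapped at both stages.

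A pair of other classes of gated fibroblasts served for comparison in the same libraries. The deep-side class held 1878 cells with at least 2 of the 4 deep markers and fewer than 3 of the 6, the remaining class 11482 cells that met neither rule, and 1496 cells met both and entered no class. The classes were cut by UMIs of the same cells, so their differences are a description. Against the deep-side class, 5710 of 11043 genes (51.7%) passed an edgeR adjusted p under 0.05, 28.4% higher and 23.3% lower, and nothing is read from that share. Fold changes are on the log2 scale with their SE, over 10 libraries with the library as a block.

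Wnt target genes that the rule did not use stood higher in the upper dermal fibroblasts than in the deep-side class. Of 11 genes of the Wnt feedback and target list, 10 were higher and none lower, with a median difference of 1.52 against 0.04 over all genes. Tcf7, a partner of beta-catenin on DNA, ranged from 4.29 to 77.0 CPM in the upper dermal and from 0 to 11.1 CPM in the deep-side class (2.83 ± 0.16). Nkd1, which blocks Dishevelled, ranged from 77.9 to 262 CPM and from 30.6 to 67.7 CPM (1.79 ± 0.12), and its relative Nkd2 differed by 2.0 ± 0.11. The Wnt targets Tnfrsf19 (2.45 ± 0.12) and Sp5 (2.38 ± 0.20) were higher as well, and Myc was the gene that was not (-0.10 ± 0.08). Genes of the upper dermis and papillary list went both ways, 5 of 9 tested being higher, among them Prdm1 (2.81 ± 0.29) and Itga8 (1.36 ± 0.11), and 3 lower, Pdpn (-2.23 ± 0.24), Col18a1 (-2.59 ± 0.20) and Ntn1 (-0.16 ± 0.06).

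Secreted Wnt inhibitors split between the classes. Dkk1, which blocks Lrp receptors (2.52 ± 0.17), Wif1, which binds Wnt proteins (2.51 ± 0.15), Apcdd1 (2.48 ± 0.16) and Sfrp5 were higher in the upper dermal fibroblasts. Sfrp1 (-3.02 ± 0.12) and Dkk2 (-2.87 ± 0.21) were higher in the deep-side class. Sfrp1 ranged from 6.15 to 13.1 CPM in the upper dermal and from 47.8 to 129 CPM in the deep-side fibroblasts, with no overlap. The ligands divided in the same way. Wnt4 (1.87 ± 0.11), Wnt6 (1.39 ± 0.14) and Wnt10a (2.36 ± 0.36) were higher and Wnt2 was lower (-5.99 ± 0.26), with 0.42 to 2.62 CPM in the upper dermal and 11.2 to 205 CPM in the deep-side class. Rspo3, an R-spondin that was not part of the rule, was higher by 1.52 ± 0.20.

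The genes with the largest differences otherwise included Stmn2 (3.14 ± 0.17), a regulator of microtubules, the copine Cpne5 (2.97 ± 0.17), the transcription factor gene Trps1 (2.91 ± 0.12), the retinoic acid hydroxylase Cyp26b1 (2.85 ± 0.14), Bcl11b (2.39 ± 0.09) and the agouti gene a (2.33 ± 0.15), all higher. Trps1 ranged from 56.7 to 703 CPM against 11.0 to 78.1 CPM. Lower genes were Pamr1 (-7.09 ± 0.13), the IGF-binding protein Igfbp6 (-7.02 ± 0.23), prostacyclin synthase Ptgis (-6.32 ± 0.25), the semaphorin Sema3c (-5.75 ± 0.21), Meox2 (-4.96 ± 0.30) and the matrix protein tenascin-X, Tnxb (-4.90 ± 0.21). Igfbp6 ranged from 0.293 to 8.33 CPM in the upper dermal and from 42.2 to 682 CPM in the deep-side class. All 12 tested genes of the deep dermis and fascia list were lower (median -3.23), and 18 of 22 collagen and matrix genes were lower and 1 higher (median -0.57). Of 20 genes of the G2/M phase, 18 were higher and none lower (median 0.65).

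The distance to the remaining fibroblasts was smaller. There 3228 of 12442 genes (25.9%) passed, 13.6% higher and 12.4% lower. In the E16.5 libraries alone 218 passed, 38 higher and 180 lower. The remaining cells had a lower median depth in every library (7606 to 18607 UMIs per cell). Of the Wnt feedback and target list 10 of 11 genes were higher again and Myc was lower (-0.17 ± 0.05), but the median difference was 0.29. Tnfrsf19 (0.63 ± 0.10) and Sp5 (0.69 ± 0.14) led. All 6 mural cell genes were lower, with the pericyte gene Rgs5 at -4.12 ± 0.35, the actin gene Acta2 at -3.53 ± 0.54 and Tagln at -3.08 ± 0.32, so the remaining class held more mural RNA than the upper dermal class. The largest differences on the higher side were small, and included the kinase Rps6ka3 at 0.71 ± 0.13, the claudin Cldn10 at 0.60 ± 0.15 and the chemokine Cxcl14 at 0.53 ± 0.11. The G2/M list was higher in all 20 of its genes (median 0.47). Of 11 upper dermis and papillary genes 5 were higher and Col18a1 was lower (median 0.13).

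**Figure D2:**
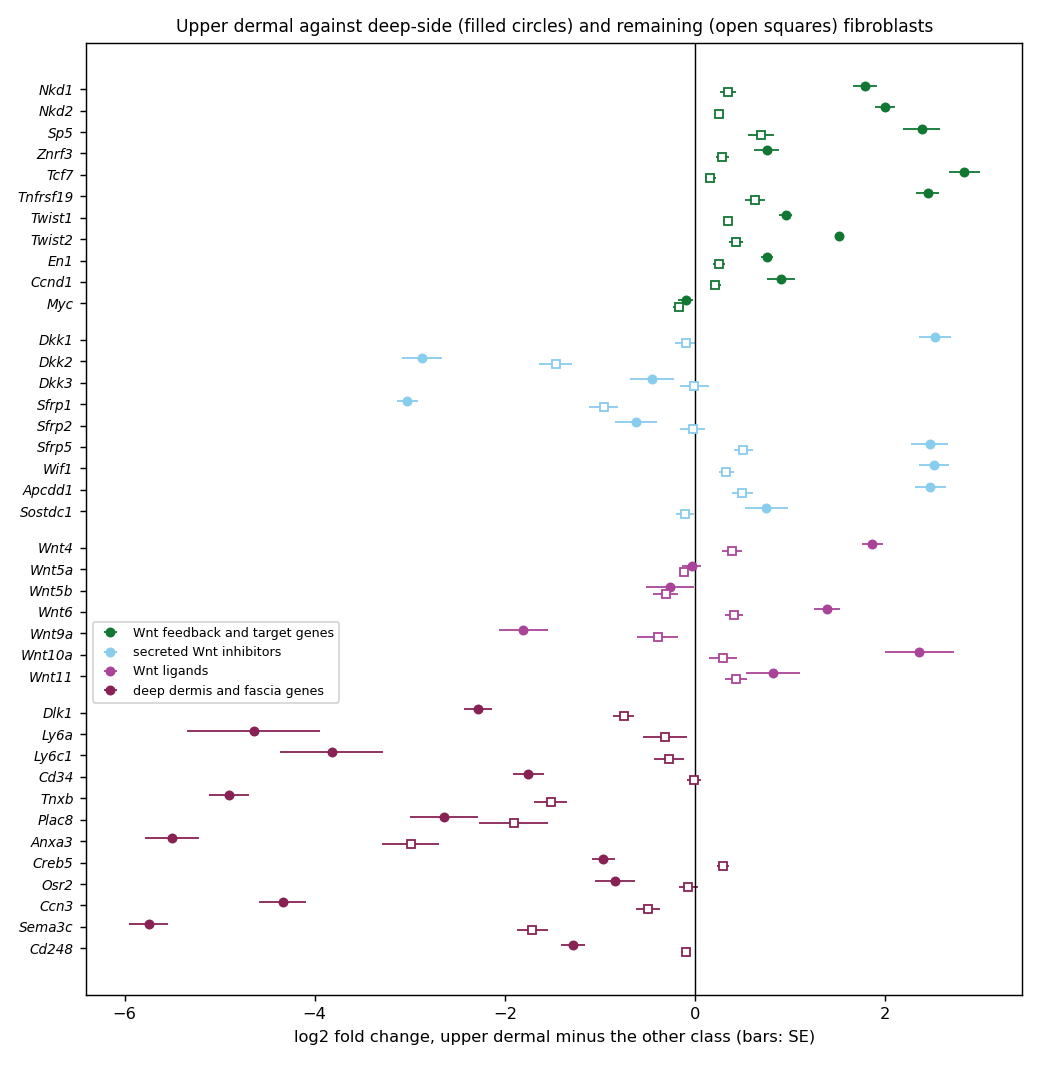
Log2 fold changes (horizontal axis) of genes of 4 lists (rows) in upper dermal against deep-side (filled circles) and remaining fibroblasts (open squares), with SE bars, over 10 libraries. Nearly all Wnt feedback genes lie to the right of 0 against both classes (medians 1.52 and 0.29), the inhibitors fall on both sides, and the deep genes lie to the left against the deep-side class (median -3.23).

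Since the 6 markers chose the cells, their response to the loss of Mof in the epithelium was read in all gated fibroblasts, whose choice did not use them. At E16.5 Lef1 stood at 63.4 and 44.9 CPM in the controls and 19.1 and 16.2 CPM in MOF cKO (-1.48 ± 0.19, edgeR adjusted p = 0.0271). Rspo1 stood at 46.0 and 30 CPM against 131 and 124 CPM (1.90 ± 0.19, edgeR adjusted p = 0.0245). So the nuclear partner of beta-catenin fell and the R-spondin rose in these sums. A UMI of Lef1 was found in 21.05% and 16.8% of the endothelial and immune cells of these controls. In those of MOF cKO it was found in 2.80% and 4.545%. Rspo1 was found there in 1.75% and 2.52% against 7.48% and 8.18%, and Axin2 in 12.3% and 13.45% against 2.80% and 6.36%. Few cells lie behind these shares, namely 57 and 119 control cells against 107 and 110 cells of MOF cKO. Median depth differed as well, with 11172 and 10480 UMIs per control cell against 14679 and 13560. Whether the shares differ by genotype was not tested. The part of RNA from outside the fibroblasts in the marker changes was not tested. Among all gated fibroblasts 587 of 12403 genes (4.73%) passed the test, 2.43% higher and 2.3% lower. By edgeR the count was 0 without control replicate 2, 159 without control replicate 1, and 86 and 263 without MOF cKO replicates 1 and 2.

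The other 4 markers did not pass. Axin2 stood at 35.4 and 32.5 CPM in the E16.5 controls and 20.2 and 18.5 CPM in MOF cKO, without overlap (-0.68 ± 0.15, edgeR adjusted p = 0.0653). Ptgfr differed by 0.61 ± 0.15 (0.0832), Inhbb by -0.39 ± 0.16 (0.221) and Crabp1 by -0.04 ± 0.29 (0.953), a value that turned to 0.33 without MOF cKO replicate 2. The Lef1 call was lost on leaving out any 1 of the 4 libraries, with edgeR adjusted p between 0.0575 and 0.121, and the Rspo1 call on leaving out control replicate 2 (0.121) or MOF cKO replicate 1 (0.0577). At E15.5 none of the 6 passed, and neither did any of the 15944 genes tested (0.0%) by edgeR, although 2630 had an unadjusted p under 0.05 and DESeq2 called 562. There Rspo1 stood at 35.1 and 39.0 CPM in the controls and 74.8 and 52.3 CPM in MOF cKO, and Lef1 at 77.3 and 75.6 against 54.0 and 70.2 CPM, both without overlap. The change differed between the stages for 195 of 14667 genes (1.33%, with 0.436% toward higher and 0.893% toward lower values at E16.5) and for none of the 6 markers, Lef1 with -1.16 ± 0.22 (edgeR adjusted p = 0.0574). The count was 0 without E15.5 control replicate 2, E15.5 control replicate 3 or E15.5 MOF cKO replicate 6 by edgeR, 3 without E15.5 MOF cKO replicate 5, 2 and 34 without E16.5 MOF cKO replicates 1 and 2, and 891 and 94 without E16.5 control replicates 1 and 2.

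**Figure D3:**
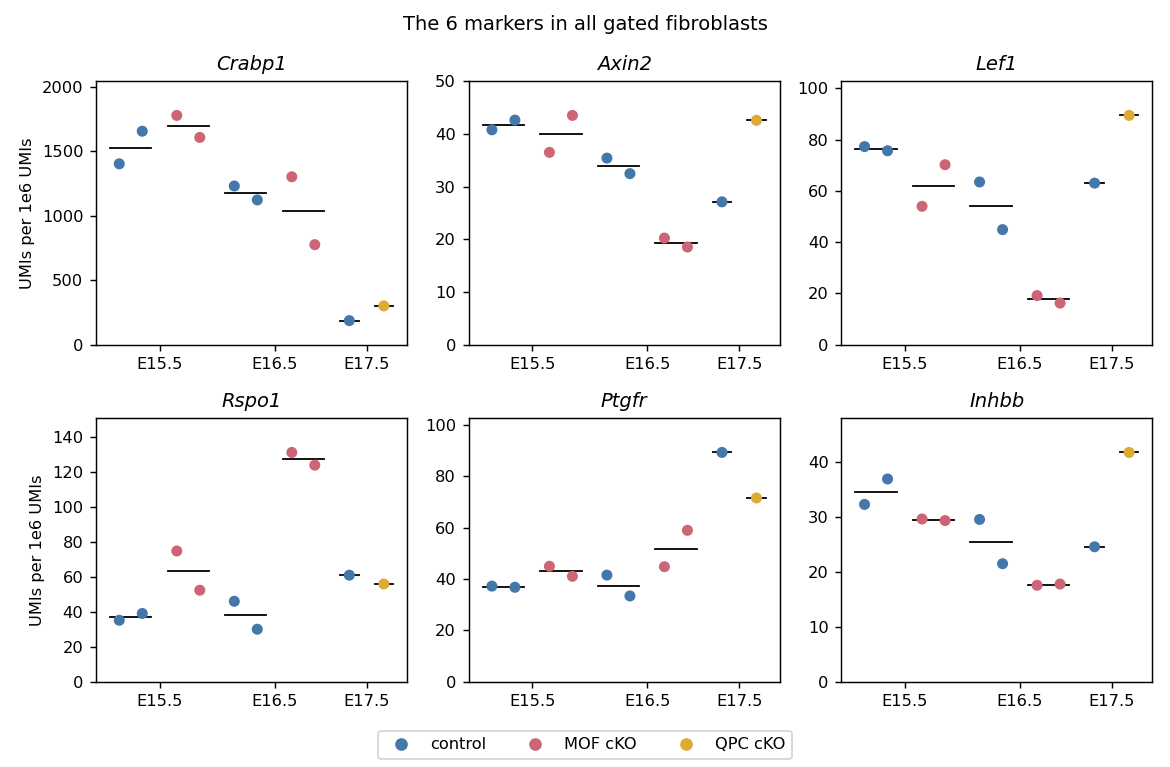
CPM (vertical axes, marked UMIs per 1e6 UMIs, linear from 0) of the 6 markers in all gated fibroblasts, with a point per library, a bar at each group mean and stages on the horizontal axes. At E16.5 the MOF cKO points of Lef1 (19.1 and 16.2) and Axin2 lie below the controls and those of Rspo1 (131 and 124) above them, while Crabp1 overlaps.

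At E16.5 the upper dermal fibroblasts of MOF cKO skin differed widely from those of the controls. Of 10798 genes tested 1191 (11.0%) passed an edgeR adjusted p under 0.05, 620 higher (5.74%) and 571 lower (5.29%). Some Wnt inhibitors and feedback genes, the hedgehog receptor Ptch1 and most cell cycle genes fell, and most inflammatory and 11 of 22 matrix genes rose. The count rests on few libraries, being 96 without MOF cKO replicate 1 (79 higher, 17 lower), 250 without replicate 2 (216 higher, 34 lower), 1840 without control replicate 1 and 788 without control replicate 2, and of 122 named or listed genes that passed, 24 did so without each library in turn. It was 422 with Axin2 or Lef1 required, and scaling by library size alone, which shifts the median gene by -0.15, gave 1474 calls of which 35.1% were higher instead of 52.1%.

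Of the 11 feedback and target genes of the Wnt pathway, 4 fell and none rose (median -0.49, against 0.01 over all genes). Nkd1 stood at 260 and 196 CPM in the controls and 77.9 and 86.9 CPM in MOF cKO (-1.30 ± 0.16, edgeR adjusted p = 0.00936). Its relative Nkd2 stood at 55.7 and 52.6 against 25.2 and 26.4 CPM (-0.91 ± 0.15, edgeR adjusted p = 0.0161). Tcf7 stood at 44.1 and 14.3 against 4.92 and 4.29 CPM (-2.42 ± 0.53, edgeR adjusted p = 0.0335), with controls that differed 3-fold from each other. The cyclin D1 gene Ccnd1, which drives entry into S phase, stood at 223 and 182 against 44.9 and 66.9 CPM (-1.69 ± 0.20, edgeR adjusted p = 0.00929). For all 4 the groups did not overlap. Each call was lost without MOF cKO replicate 1 (edgeR adjusted p between 0.0662 and 0.162), and those of Nkd1, Nkd2 and Tcf7 also without MOF cKO replicate 2 (0.0686 to 0.185). Since more cells of the MOF cKO libraries entered with neither Axin2 nor Lef1 (46.3% and 55.2% against 23.8% and 23.8%), the test was repeated with a UMI of either required. There Nkd1 (-1.01, edgeR adjusted p = 0.0354) and Ccnd1 (-1.29, 0.0285) passed, and Nkd2 (-0.71, 0.0686) and Tcf7 (-2.03, 0.0977) did not.

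Of 10 secreted inhibitors 3 fell and 1 rose. Dkk1 stood at 39.3 and 34.5 CPM in the controls and 1.54 and 4.05 CPM in MOF cKO (-3.50 ± 0.33, edgeR adjusted p = 0.00467). Wif1 stood at 385 and 307 against 39.4 and 81.4 CPM (-2.36 ± 0.31, edgeR adjusted p = 0.00936) and Sfrp5 fell by 1.57 on the log2 scale. Sfrp2, a frizzled-related protein, stood at 166 and 137 against 389 and 393 CPM (1.53 ± 0.15, edgeR adjusted p = 0.00536). Of the other inhibitors named against the deep-side class, Apcdd1 (-0.69, edgeR adjusted p = 0.332), Sfrp1 (0.21, 0.734) and Dkk2 (-0.43, 0.35) did not pass. Among 7 ligands Wnt6 fell (42.7 and 39.2 against 16.6 and 18.6 CPM) and Wnt9a rose from 0 and 1.31 to 8.0 and 8.81 CPM. Of 15 receptor and R-spondin genes, markers left out, the receptor gene Fzd1 rose (1.09 ± 0.18). None of 15 genes of the beta-catenin core passed.

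Other pathways that shape the upper dermis moved in part. The hedgehog receptor and target Ptch1 stood at 124 and 77.2 CPM in the controls and 20.9 and 29.0 CPM in MOF cKO (-1.82 ± 0.23, edgeR adjusted p = 0.00936). Gli1, a further hedgehog target, stood at 57.4 and 18.4 against 4.0 and 11.0 CPM and did not pass (edgeR adjusted p = 0.0651). Of 22 genes of the activin, TGF-beta and BMP pathway 4 rose and 2 fell (median 0.02). Id1, a target of BMP signals, stood at 93.7 and 89.9 against 12.9 and 22.1 CPM (-2.22 ± 0.23, edgeR adjusted p = 0.0063). The other listed BMP targets did not pass, with Id2 at -0.18, Id3 at -0.63, Smad6 at 0.24, Smad7 at 0.0047 and Bambi at -0.23 (edgeR adjusted p between 0.126 and 0.991). The BMP antagonist Nog was lower (-1.20 ± 0.23) and the BMP antagonist Grem1 higher (1.95 ± 0.35), while Tgfb2 (1.85 ± 0.24) and the TGF-beta-induced matrix protein Tgfbi (2.35 ± 0.21) rose. Tgfbi stood at 10.6 and 12.02 CPM in the controls and 56.9 and 48.8 CPM in MOF cKO. The fibroblast growth factor Fgf7, a signal to epithelium, stood at 2.39 and 0.563 against 8.92 and 14.8 CPM (3.36 ± 0.55). Of these calls those of Id1, Tgfb2 and Tgfbi held without each library in turn, while those of Ptch1, Nog, Grem1 and Fgf7 did not.

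Deep dermis genes rose in part, and upper dermis genes moved both ways. Of 11 deep dermis and fascia genes 4 rose and none fell (median 1.03). Ly6a (Sca-1) stood at 8.55 and 7.32 CPM in the controls and 93.6 and 60.7 CPM in MOF cKO (3.44 ± 0.29, edgeR adjusted p = 0.00366), and Ly6c1, the stem cell antigen Cd34 (1.02 ± 0.21) and Dlk1 (1.03 ± 0.25) rose too. Of 9 upper dermis and papillary genes Trps1 fell (203 and 126 against 64.0 and 56.7 CPM), while Pdpn and Col18a1 rose. Of these calls that of Ly6a held without each library in turn, while those of Cd34 (edgeR adjusted p between 0.068 and 0.193), Dlk1 (0.0766 to 0.31) and Col18a1 (0.0539 to 0.232) were lost without MOF cKO replicate 1, MOF cKO replicate 2 or control replicate 2. Of 22 collagen and matrix genes 11 rose and none fell (median 0.60). The lysyl oxidase gene Lox, which crosslinks collagen, stood at 175 and 129 against 291 and 364 CPM (1.28 ± 0.18) and Postn at 358 and 168 against 639 and 928 CPM (1.76 ± 0.32). Tenascin-C, Tnc, rose most of this list, from 5.81 and 3.76 to 238 and 85.7 CPM (5.29 ± 0.59, edgeR adjusted p = 0.00741), and its call was the only one of the list that held without each library in turn.

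Cell cycle genes fell together. The S phase list summed to 1562 and 1575 CPM in the controls and 579 and 633 CPM in MOF cKO. The G2/M list summed to 2179 and 2775 against 852 and 637 CPM. So the sums were low in each MOF cKO library, although most calls of lower genes were lost without MOF cKO replicate 1 or 2. Of 20 S phase genes 17 fell and none rose (median -1.31), and of 20 G2/M genes 18 fell and none rose (median -1.66). Among these the call of Ccnb1 held without each library in turn, and none of the others did. Topoisomerase Top2a stood at 242 and 333 CPM in the controls and 103 and 67.8 CPM in MOF cKO (-1.61 ± 0.30, edgeR adjusted p = 0.0215). The mitotic kinase gene Aurkb stood at 70.8 and 98.9 against 25.5 and 11.9 CPM, and Pbk (-2.29 ± 0.31) and the spindle gene Hmmr (-2.13 ± 0.33) were among the 8 largest falls. The remaining large falls were in Krt15, Lor, Prss23, Wif1 and Id1, of which Krt15 and Lor are genes of keratinocytes.

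Inflammatory genes rose. Of 19 inflammatory genes 17 rose and none fell (median 2.88), and of 16 AP-1 and immediate early genes 11 rose and none fell (median 0.99). The calls of Ccl7, Ccl11, Cxcl5, Cxcl10, Icam1, Socs3 and Serpina3n held without each library in turn, those of the other inflammatory genes and of the immediate early genes did not. Isg15, a ubiquitin-like protein induced by interferon and in neither list, stood at 1.03 and 1.31 CPM in the controls and 198 and 151 CPM in MOF cKO (7.27 ± 0.31, edgeR adjusted p = 0.00071). Ifit1, which binds viral RNA, stood at 0 and 0.188 against 116 and 49.3 CPM, and the interferon-inducible GTPase Iigp1 at 0 and 0.188 against 90.2 and 33.6 CPM. The chemokine Cxcl10 stood at 2.73 and 0.376 against 409 and 93.1 CPM (7.77 ± 1.02, edgeR adjusted p = 0.00955). Ifi27l2a and the complement gene C2 rose by 7.25 ± 0.36 and 5.35 ± 0.43. The protease inhibitor Serpina3n stood at 0.342 and 0.188 against 266 and 44.04 CPM. Reg3g, an antimicrobial lectin, had no UMI in either control and 295 and 29.0 CPM in MOF cKO, at least 399-fold higher when the controls together are set to 3 UMIs. The MOF cKO libraries differed 10-fold from each other in Reg3g, and for each of these genes both lay above both controls.

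RNA of other cells moved with these groups. The 7 immune markers summed to 20.9 and 22.5 CPM in the upper dermal fibroblasts of the E16.5 controls and to 121 and 91.9 CPM in MOF cKO, and 4 of the 6 tested rose, Lyz2 from 8.55 and 5.26 to 57.9 and 39.0 CPM. Ptprc was 0 by the rule. The 10 keratinocyte markers summed to 399 and 428 CPM in the controls and 202 and 112 CPM in MOF cKO, and 3 of them fell. Their part in the changes was not tested. With the keratin limit set to fewer than 2 UMIs, which left 12 and 110 control cells, 109 genes passed, 108 of them among the 1191.

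RefSeq promoters (GRCm38.p6) were windows of 300 bases from 250 before to 50 after the gene's start. Of the 8 largest rises among genes with a mean of at least 50 CPM in either group, 5 had an entry. The core of the interferon-stimulated response element, searched as GAAANNGAAA on both strands, was found in 3 of them, in Isg15, Ifit1 and Cxcl10, and in 3.44% of all 32851 promoter windows. They are shown because they belong to 3 of these 8 rises. Matches, 3 overlapping in Isg15, 2 in Ifit1 and 1 in Cxcl10, are in capitals, and each sequence reads in the direction of its gene.
Isg15, chr4:156200769-156201068, minus strand: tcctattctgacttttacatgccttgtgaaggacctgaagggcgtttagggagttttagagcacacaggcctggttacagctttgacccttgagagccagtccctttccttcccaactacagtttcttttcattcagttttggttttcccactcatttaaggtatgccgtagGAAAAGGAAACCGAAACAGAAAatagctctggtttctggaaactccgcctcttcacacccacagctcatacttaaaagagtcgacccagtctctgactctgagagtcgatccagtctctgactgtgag
Ifit1, chr19:34640639-34640938, plus strand: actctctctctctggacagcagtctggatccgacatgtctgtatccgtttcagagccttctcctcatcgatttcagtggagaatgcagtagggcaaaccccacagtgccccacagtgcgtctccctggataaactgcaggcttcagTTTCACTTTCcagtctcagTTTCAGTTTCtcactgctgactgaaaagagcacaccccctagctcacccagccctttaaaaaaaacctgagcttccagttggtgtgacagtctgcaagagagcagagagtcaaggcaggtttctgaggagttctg
Cxcl10, chr5:92348840-92349139, minus strand: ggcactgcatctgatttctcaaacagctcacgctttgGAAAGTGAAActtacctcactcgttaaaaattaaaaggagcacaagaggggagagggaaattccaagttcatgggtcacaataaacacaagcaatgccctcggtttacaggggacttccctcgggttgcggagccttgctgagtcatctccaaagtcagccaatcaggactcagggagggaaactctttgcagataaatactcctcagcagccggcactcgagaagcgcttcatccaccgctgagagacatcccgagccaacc
The promoters of Reg3g and Serpina3n held no match, and Iigp1, Ifi27l2a and C2 had no entry. Among the 8 Wnt pathway genes that fell, 7 had an entry, and the TCF/LEF core CTTTGA, searched on both strands, was found in 1, that of Dkk1, against 16.0% of all windows. Its 2 matches are in capitals, 1 of them read on the opposite strand.
Dkk1, chr19:30549447-30549746, minus strand: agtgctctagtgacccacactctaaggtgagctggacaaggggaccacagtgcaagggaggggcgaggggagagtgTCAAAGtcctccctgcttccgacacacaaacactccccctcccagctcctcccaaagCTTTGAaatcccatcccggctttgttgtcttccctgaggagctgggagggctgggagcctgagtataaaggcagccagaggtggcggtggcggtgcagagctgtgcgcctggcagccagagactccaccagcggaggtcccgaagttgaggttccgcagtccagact
A match of letters is a description and not a binding site.

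**Figure D4:**
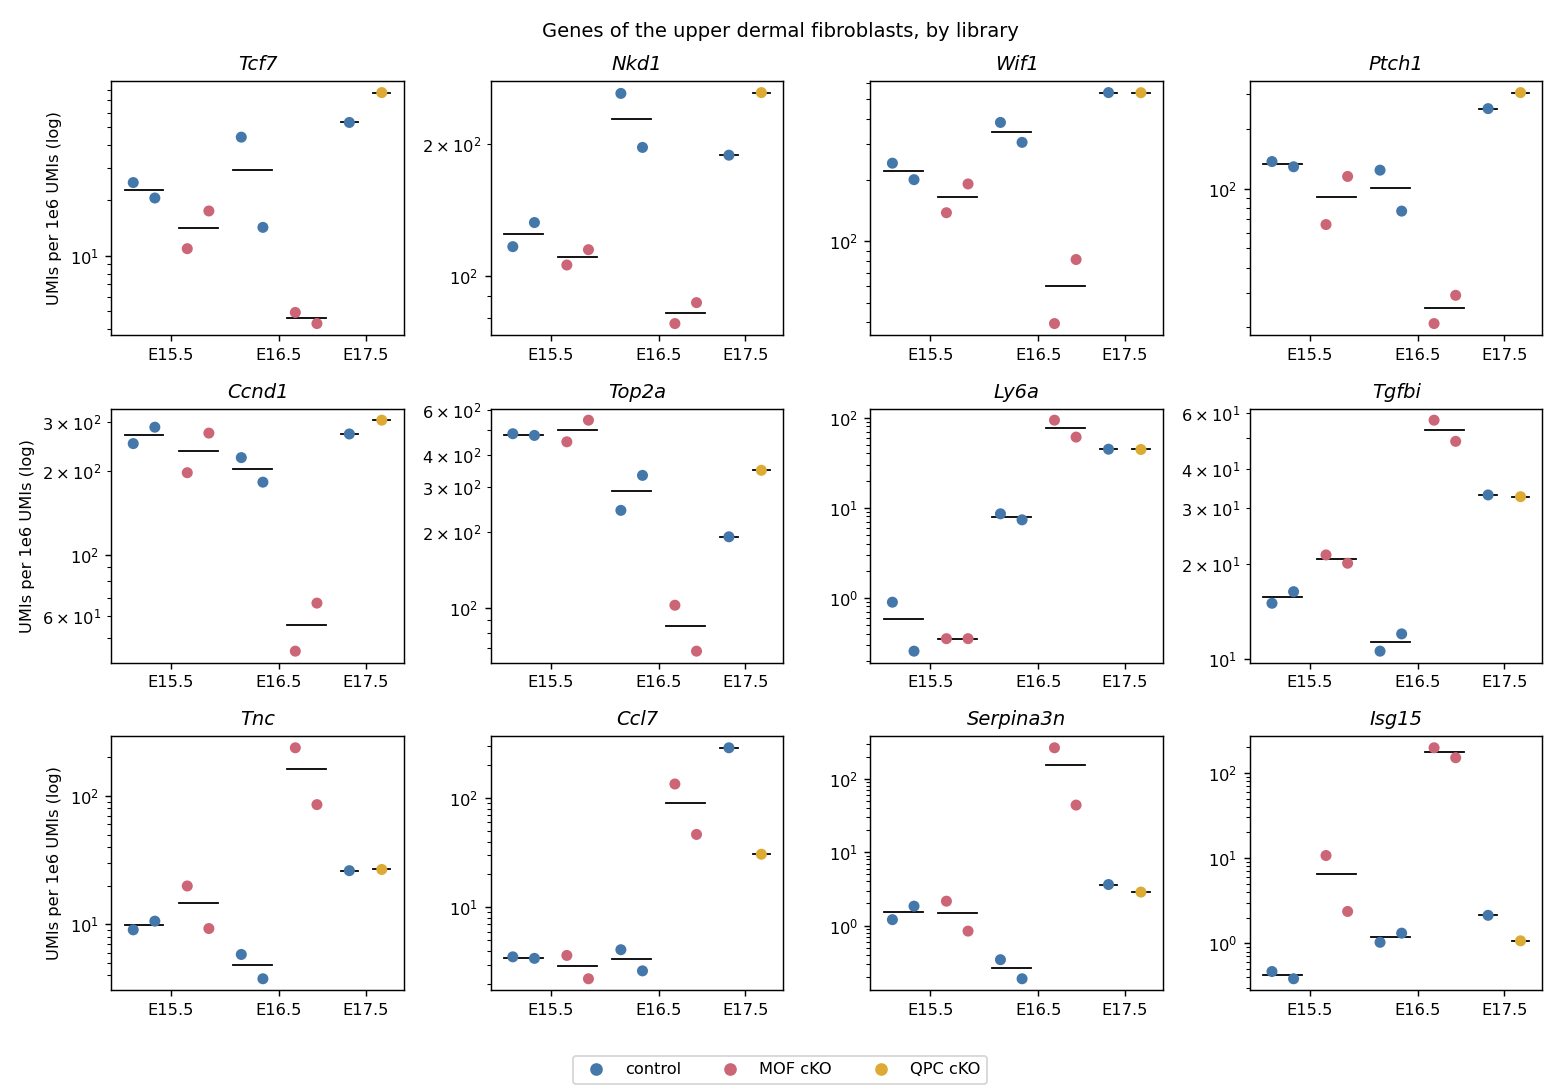
CPM (vertical axes, marked UMIs per 1e6 UMIs, logarithmic) of 12 genes in the upper dermal fibroblasts, with a point per library, a bar at each group mean and stages on the horizontal axes. At E16.5 Tcf7, Nkd1, Wif1, Ptch1, Ccnd1 and Top2a lie lower in MOF cKO than in both controls and Ly6a, Tgfbi, Tnc, Ccl7, Serpina3n and Isg15 higher, and at E15.5 Isg15 stands at 10.7 in MOF cKO replicate 5 and 2.36 in replicate 6.

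Deep-side fibroblasts of the same E16.5 libraries changed differently for 190 of 11127 genes (1.71%), 144 with the more positive change in the upper dermal class (1.29%) and 46 with the more negative one (0.413%). Ly6a, which rose in the upper dermal class, stood at 658 and 588 CPM in the deep-side controls and 170 and 679 CPM in MOF cKO (difference of changes 3.89 ± 0.56, edgeR adjusted p = 0.00113). Isg15 differed by 5.05 ± 0.76, C2 by 4.83 ± 0.67, Tgfbi by 2.18 ± 0.34, Sfrp2 by 1.38 ± 0.21, Fgf7 by 2.79 ± 0.52 and Cd34 by 1.54 ± 0.16. Of 12 deep genes 6 and of 22 matrix genes 10 had a higher change in the upper dermal class, none a lower one, and 8 of 20 G2/M genes had a lower change and none a higher one, among them Aurkb (-2.38 ± 0.39). Of the 11 Wnt feedback genes none differed by edgeR, Nkd1 with -0.63 ± 0.24 and Tcf7 with -1.49 ± 0.84, nor did Wif1 (0.18 ± 0.31), so their fall was not shown to be particular to the upper dermal class. Of 41 genes of the fixed lists called in this comparison 15 kept the call by DESeq2, and after thinning 6 of the 40 tested did. Sfrp2, Tgfbi and Cd34 passed in both, Ly6a after thinning but not by DESeq2 (adjusted p = 0.0576), and Fgf7 and Aurkb in neither. The outcomes for Isg15 and C2 are not reported here. The count was 64 by DESeq2 and 39 after every cell was thinned to 4000 UMIs, of which 4 and 1 had the more negative change, so at least 4 of the 8 G2/M calls were lost by DESeq2 and at least 7 after thinning, and the sign turned after thinning for Ccnb1 (0.54), Cenpe (0.016) and Hmmr (0.27). The deep-side class held only 29 cells in MOF cKO replicate 1. The change in the remaining fibroblasts was not tested against that in the upper dermal class. In the remaining fibroblasts the inflammatory list summed to 1591 and 728 CPM in the E16.5 controls and 4922 and 3466 CPM in MOF cKO. Their S phase list summed to 1458 and 1448 against 586 and 735 CPM. All 12 genes of their Wnt feedback list, tested or not, summed to 2125 and 1561 against 1187 and 1189 CPM. A sum does not show which genes of a list fell. The changes of these lists were therefore not shown to be particular to the upper dermal class.

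At E15.5 none of 14816 genes (0.0%) passed in the upper dermal fibroblasts by edgeR, although 2328 had an unadjusted p under 0.05 and DESeq2 called 321. Without MOF cKO replicate 6 the count was 441, without replicate 5 it was 95, without control replicate 3 it was 17 and without control replicate 2 it was 6. The 5 largest differences without overlap were, on the higher side, in Ifitm3, Ifitm1, Ptn, Hbb-y and Irf1 and, on the lower side, in Itih5, Idi1, Fst, Errfi1 and Efnb2, with edgeR adjusted p between 0.162 and 0.289. Ifitm3, an interferon-induced membrane protein, stood at 170 and 183 CPM in the controls and 480 and 223 CPM in MOF cKO, and Irf1, a transcription factor of the interferon response, at 89.5 and 122 against 223 and 130 CPM. The activin antagonist Fst stood at 58.8 and 51.5 against 25.2 and 39.7 CPM. In these genes replicate 5 lay farther from the controls than replicate 6, as it did for Isg15 (0.466 and 0.383 against 10.7 and 2.36 CPM), Ptch1 (137 and 129 against 66.0 and 115 CPM), Wif1 (243 and 201 against 138 and 192 CPM) and Tcf7 (25.0 and 20.6 against 10.9 and 17.52 CPM). The keratinocyte list summed to 122 and 200 CPM in the controls and 99.8 and 95.05 CPM in MOF cKO.

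The change differed between the stages for 514 of 13322 genes (3.86%), 227 toward higher (1.7%) and 287 toward lower values (2.15%) at E16.5. The differences included Nkd1 (-1.10 ± 0.16, edgeR adjusted p = 0.016), Nkd2, Ccnd1, Dkk1 (-2.95 ± 0.63), Wif1 and Id1, 15 of 20 S phase and 17 of 20 G2/M genes on the lower side and 7 of 20 inflammatory, 9 of 16 immediate early and 5 of 22 matrix genes on the higher side. Isg15 (edgeR adjusted p = 0.29) and Ptch1 (0.107) were not shown to differ between stages. The call count was 1 without E15.5 MOF cKO replicate 6, 2 without E15.5 control replicate 2 and 0 without E15.5 control replicate 3 by edgeR, 1337 without E16.5 control replicate 1, 214 and 111 without E16.5 MOF cKO replicates 1 and 2, and chemistry changed with stage. Between the upper dermal and deep-side classes the E15.5 change differed for 3 of 13939 genes (0.0215%, with 0.0143% higher and 0.00717% lower), which are named after their values were seen. These were Prss23, with 38.1 and 18.9 against 7.03 and 11.7 CPM in the upper dermal and 32.6 and 20.3 against 28.8 and 58.7 CPM in the deep-side class, and the embryonic globins Hbb-y and Hba-x. In the deep-side class Hbb-y stood at 184 and 875 against 6.71 and 7.20 CPM and Hba-x at 71.6 and 148 against 1.12 and 2.23 CPM, and erythroid RNA summed to between 14692 and 29988 CPM in the upper dermal fibroblasts at E15.5.

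**Figure D5:**
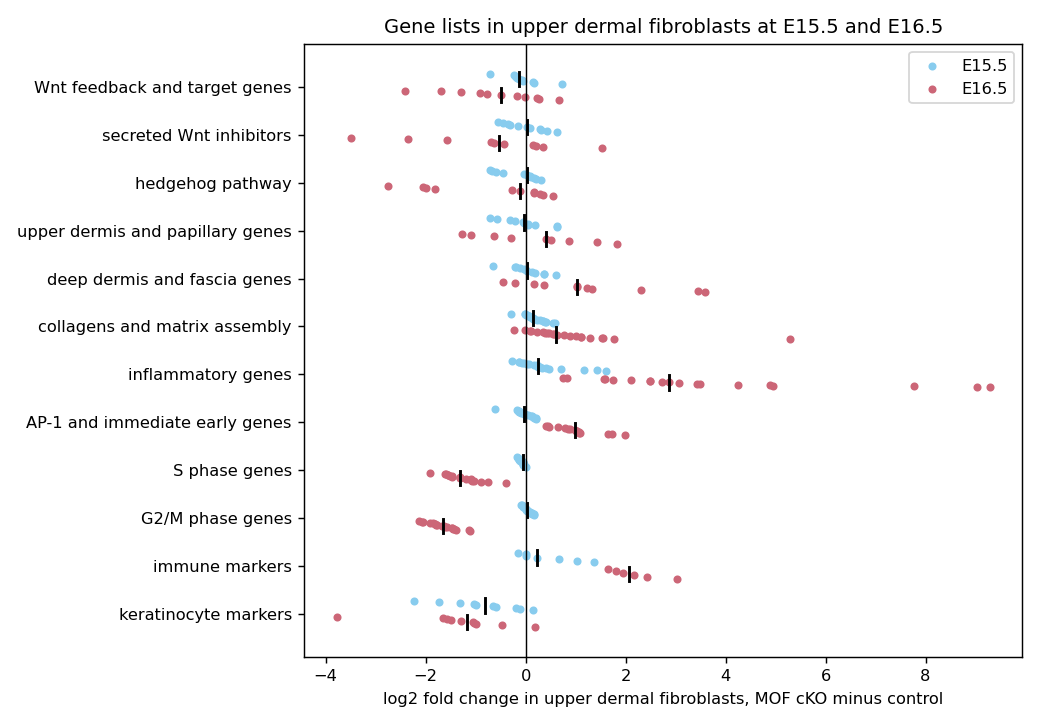
Log2 fold changes (horizontal axis, MOF cKO minus control) of the genes of 12 lists (rows) in the upper dermal fibroblasts at E15.5 (upper row of points) and E16.5 (lower row), with the median of each list as a tick. At E15.5 the lists stay near 0 apart from the keratinocyte markers (median -0.82), and at E16.5 the S phase and G2/M lists lie below 0 (medians -1.31 and -1.66) and the inflammatory list above it (2.88).

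At E17.5 1 control and 1 QPC cKO library were compared without a test, as CPM with exact Poisson intervals that cover counting error only. By the rule of a 2-fold ratio with intervals apart, 167 of 10527 genes (1.59%) were higher in QPC cKO and 107 (1.02%) lower. The 6 markers, which chose the cells, stood at 345 and 461 CPM (control first) for Crabp1, 44.5 and 61.7 for Axin2, 109 and 137 for Lef1, 89.7 and 74.1 for Rspo1, 108 and 77.6 for Ptgfr and 32.6 and 48.1 for Inhbb. None of the 11 Wnt feedback genes was past 2-fold (median 0.16 on the log2 scale, against 0.09 over all genes). Tcf7 stood at 52.99 (95% interval 49.1 to 57.2) and 77.0 CPM (73.7 to 80.4), Nkd1 at 188 and 262 CPM and Wif1 at 540.4 and 539.8 CPM. Of 11 secreted inhibitors Dkk2 was 4.0-fold and the Wnt deacylase Notum 2.03-fold higher in QPC cKO.

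Of the gene lists, the inflammatory one had the most genes past this rule at E17.5, and they were lower in QPC cKO. Of its 17 genes 11 were lower and none higher (median -1.41), and the list summed to 11210 CPM in the control and 3433 CPM in QPC cKO. The chemokine Ccl2 stood at 2036 and 309 CPM, Cxcl2 at 2046 and 280.0 CPM, Cxcl1 at 1769 and 319 CPM and Ccl7 at 287 and 30.6 CPM. Cxcl9 (110-fold), Cxcl3 (88.1-fold), the tachykinin gene Tac1 (18.3-fold), Cxcl5 (11.4-fold) and Procr (7.54-fold) were also among the 8 largest falls, Cxcl9 with 2 UMIs in QPC cKO and a value of 0.0763 CPM (0.00924 to 0.276). In the deep-side class the inflammatory list summed to 10664.5 CPM in the E17.5 control and 3745 CPM in QPC cKO. In the remaining class it summed to 12044 and 3053 CPM, so the order was not particular to the upper dermal class. This order is the reverse of that at E16.5, in another chemistry. There the list summed in the upper dermal fibroblasts to 1331 and 685 CPM in the controls and 5655 and 3500 CPM in MOF cKO. In the E15.5 controls it summed to 1184 and 1291 CPM, so the E17.5 control stood above the controls of both other stages. Of 20 G2/M genes 5 were higher and none lower (median 0.87), Ccnb1 with 37.8 and 85.4 CPM and Top2a with 191 and 348 CPM. Of 17 glycolysis and hypoxia genes 2 were higher, among them the lactate exporter Slc16a3 (9.15 and 33.0 CPM).

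The 8 largest ratios toward QPC cKO were in Gm9008, Hoxa10, B430010I23Rik, Gm26802, Ptgds, Syt1, Dct and Rgs5. Hoxa10, a homeobox gene of posterior body positions, stood at 1.03 CPM (0.546 to 1.75) and 28.1 CPM (26.1 to 30.2), a 27.4-fold ratio. B430010I23Rik had no UMI in the control and 4.43 CPM in QPC cKO, at least 18.7-fold higher against 3 UMIs. Dct, an enzyme of melanocytes, stood at 2.37 and 20.2 CPM and the melanocyte list summed to 12.9 and 48.8 CPM, while Rgs5 is a pericyte gene (0.71 and 5.49 CPM) and the mural list summed to 42.3 and 68.7 CPM. The part of these cells was not tested. The keratinocyte list summed to 535 CPM in the control and 338 CPM in QPC cKO. With 1 library a group, the embryo and the genotype cannot be told apart.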

How the data were processed

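Single-cell RNA was measured in 10 libraries of dissociated back skin. The deposited values are raw UMI counts per gene and barcode, which the authors made with Cell Ranger (1.3.1 or 6.1.2, mm10, per the labels) and did not normalise. The E16.5 libraries list fewer genes than the others.

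UMIs of the upper dermal fibroblasts were summed per library, so that libraries and not cells are the replicates. The study describes the MOF libraries of each stage as separate samples of dorsal skin, at E15.5 from separate embryos. For E16.5 the sources used here do not name the embryos, and p-values there measure only the spread between these samples. Sums were tested with edgeR 4.0.16 (quasi-likelihood test, TMM, filterByExpr, Benjamini-Hochberg adjusted p under 0.05). The SE is the fold change divided by the root of F. DESeq2 1.42.0 was an alternative. Shares were tested by permuting genotype labels exactly, two-sided. The 17 genes of the cell rule were left out of the counts of called genes. For all gated fibroblasts only Col1a1, Col3a1, Krt5, Krt14, Sox2, Pecam1 and Ptprc were left out. Counts of genes at an unadjusted p under 0.05 left none of them out. No doublet caller was run. Scripts were tested on simulated data (R 4.3.3, Python 3.11.15, scipy 1.17.1).

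Named genes were those of fixed lists and, per comparison, the largest rises and falls past the threshold with a mean of 50 CPM and no overlap between groups (8 and 8 at E16.5 and, with at least 100 UMIs, E17.5; 5 and 5 at an unadjusted p under 0.05 at E15.5; 10 and 10 with the same direction in all 10 libraries between classes). Some genes that meet this rule are not reported here. The cell rule and the gene lists were chosen with earlier results of these data known. Alternatives were another scaling, no filter, 4 markers or (for shares) 2, cells thinned to 4000 UMIs, fewer than 2 keratin UMIs, 5% mitochondrial UMIs, single stages, leaving out each library and a replicate block. Chosen after seeing the data were the requirement of Axin2 or Lef1, leaving out shared barcodes, the crossed block and the tests in all gated fibroblasts. Intervals and limits for a count of 0 (3 UMIs) cover counting error only.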

Additional observations from a re-analysis of the deposited data

Results flagged for a closer look

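The change from control to MOF cKO differed between E15.5 and E16.5, by the test of stage and genotype together, for 514 genes of the upper dermal fibroblasts. Among Wnt pathway genes the change at E16.5 minus that at E15.5 (log2) was -2.95 for Dkk1, -1.90 for Wif1, -1.10 for Nkd1, -1.06 for Nkd2, -1.47 for Ccnd1, 0.94 for Fzd1 and 1.22 for Sfrp2. For genes of BMP and TGF-beta signals it was -1.83 for Id1, -1.08 for Nog and 1.96 for Tgfbi. For cell cycle genes it was -2.15 for Pbk, -2.15 for Hmmr and -2.10 for Aurkb. It was 9.52 for Serpina3n, 6.1 for Ifi27l2a, 5.07 for C2 and 2.79 for Ptgs2, 4.01 for Ly6a, 2.52 for Fgf18 and -5.12 for Lor, a keratinocyte gene. The count fell to 1 without E15.5 MOF cKO replicate 6, to 2 without E15.5 control replicate 2 and to 0 without E15.5 control replicate 3, and the stages differed in chemistry and depth. Groups of 2 libraries are too small for a test of single libraries that stand apart.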

How the results depend on the processing

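The summed UMIs of the upper dermal class were lowest at E16.5. The 5% mitochondrial limit (not run for E17.5) and leaving out shared barcodes kept the counts of genes within 1.5 times. Causes of the other moves were not tested. Where a left-out library leaves 1 in its group, that one is assumed to vary like the others. For the E15.5 change in upper dermal fibroblasts (0 genes), DESeq2 gave 321, no filter 795 and thinning to 4000 UMIs 6, and leaving out each library 6 to 441. For the E16.5 change (1191), no filter gave 2359, 4 markers 584, thinning 438, the stricter keratin limit 109 and Axin2 or Lef1 422, and leaving out each library 96 to 1840. For the difference between stages (514), DESeq2 gave 1149, no filter 1242, 4 markers 282, thinning 212, the keratin limit 122 and Axin2 or Lef1 218, and leaving out each library 0 to 1337. Against the deep-side class (5710), thinning gave 2059, the keratin limit 3373 and the E16.5 libraries alone 2187. Against the remaining class (3228), thinning gave 1154, the keratin limit 1867 and the E16.5 libraries alone 218. For the difference of changes between classes at E15.5 (3), DESeq2 and the keratin limit each gave 6, no filter 92 and thinning 7, and leaving out each library 4 to 159. At E16.5 (190), DESeq2 gave 64, no filter 447, 4 markers 119, thinning 39, the keratin limit 80 and Axin2 or Lef1 105, and leaving out each library 157 to 313. In all gated fibroblasts at E15.5 (0), DESeq2 gave 562 and no filter 342, and leaving out each library 0 to 69. At E16.5 (587), DESeq2 gave 911, no filter 1755 and the keratin limit 138, and leaving out each library 0 to 263. For their difference between stages (195), DESeq2 gave 905, library size alone 336, no filter 518 and the keratin limit 123, and leaving out each library 0 to 891. Scaling by library size alone shifted the median gene of the upper dermal fibroblasts by -0.15 at E16.5 and by -0.16 in the difference between stages, where the higher share of calls moved from 44.2% to 24.0%, and that of all gated fibroblasts by -0.12 and -0.13. At E17.5 (274), thinning gave 47 and the keratin limit, which left 10 control cells, 122.

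The difference in the share of gated fibroblasts turned negative with 2 or more markers at E15.5 (-1.80) and with Axin2 or Lef1 at E15.5 (-1.43), at E16.5 (-5.83) and over both stages (-3.63), as did that of kept cells at E16.5 (-0.26). Leaving out each library gave -3.38 to 5.42 at E15.5. Single values that turned were Krt15 in the difference between stages (-2.57 to 0.34 over the libraries left out, 0.34 without E15.5 MOF cKO replicate 6), Crabp1 in all gated fibroblasts at E16.5 (0.061 with the keratin limit, and -0.53 to 0.33 over the libraries left out, 0.33 without MOF cKO replicate 2), and in the difference of changes between classes at E16.5 Ccnb1 (0.54), Cenpe (0.016) and Hmmr (0.27) after thinning, Hmmr over the libraries left out (-2.13 to 0.0015, the latter without MOF cKO replicate 2) and Tnc (-0.10) with the keratin limit.

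At least 2 replicate numbers were shared between genotypes only at E16.5. The study describes pairs of control and MOF cKO samples with littermate controls, and the labels do not say which libraries form a pair. The deviations of same-numbered libraries correlated over genes at -0.19 in upper dermal fibroblasts and -0.12 in all gated fibroblasts. With 2 libraries a group this cannot decide whether the numbers pair the libraries. With the replicate number as a block 923 genes passed at E16.5, and 439 in all gated fibroblasts. With the crossed pairing, chosen after seeing the data, 1857 and 727 passed. No analysis paired by replicate number was possible at E15.5 and E17.5 because the groups share fewer than 2 numbers.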
